A study of Mus musculus with 12 samples.

Results

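Wild-type myeloid progenitors were compared with wild-type LSK cells of mouse bone marrow, across all genes on the array. The means compared come from 6 of the study's 12 arrays, chosen by title: 3 of wild-type LSK cells (arrays 1, 2 and 3) and 3 of wild-type myeloid progenitors (arrays 7, 8 and 9). Standard errors, p-values and calls use the spread within groups over all 12 arrays. Per the labels' protocols, the mice of both wild-type groups carried LoxP-flanked alleles of FoxO1, FoxO3 and FoxO4 and were negative for the Mx-Cre transgene, so the alleles were floxed but no Cre was present. The other 6 arrays held the same cell populations from mice positive for Mx-Cre (LSK arrays 4, 5 and 6, myeloid progenitor arrays 10, 11 and 12). Mx-Cre drives the recombinase from a promoter that answers to interferon. In every group the cells came from pooled mice and 3 amplifications of RNA were hybridized. Nothing in the labels ties the arrays of 1 group to separate pools, so that the p-values here rest on a spread that may be technical. Strain, age, the treatment of the mice and the sort gates are not given in the sources used here. The question named in the labels is the effect of FoxO loss on genes of reactive oxygen species (ROS) metabolism, and the wild-type groups give the baseline difference between the cell types.

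LSK cells are bone marrow cells that lack lineage markers and carry Sca-1 and Kit on their surface. They hold the long-lived hematopoietic stem cells (HSCs) together with multipotent progenitors, some of which lean to the lymphoid fates. Myeloid progenitors lie downstream and have lost most lymphoid potential; they make granulocytes, monocytes, red cells and platelets. The name usually covers common myeloid, granulocyte-monocyte (GMP) and megakaryocyte-erythroid progenitors, which are lineage-negative and Kit-positive but lack Sca-1. HSCs divide rarely and are known for low mitochondrial activity, while the committed progenitors divide fast.

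Values below are normalized intensities. Unless stated otherwise, a set of 3 gives LSK arrays 1, 2 and 3 or myeloid progenitor arrays 7, 8 and 9 in that order, a group level is the geometric mean of 3 arrays, and a log2 change is myeloid progenitors minus LSK with its standard error (n = 3 arrays per group). The mean deposited intensity of the 12 arrays ran from 119 to 190.2. On LSK array 2 the Gapdh control read 344 times higher at the 3′ end of the transcript than at the 5′ end, against 1.77 to 2.37 times on the other arrays, so counts are given with and without it. The lower group of some genes lay under the background limit, the brightest of 27 bacterial control probe sets on that array. The change is then given as "at least" a fold against that limit. Where only 1 array of the lower group passed the limit, values and the adjusted p are given with no fold. Lists of genes by role are described by counts of tested members, those with a probe set of their own that passed a filter on low values: of the 1202 genes on the lists, 1017 were tested, 56 did not pass the filter and 129 had no such probe set.

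Markers of stem and committed cells followed the labels. The HSC genes Mecom, Hlf, Procr and Meis1 were lower in myeloid progenitors, and the committed genes Mpo, Elane, Ctsg, Gata1, Klf1 and Epor were higher. Meis1, a homeobox factor of stem cells, read 198, 206 and 204 on LSK arrays and 49.2, 41.4 and 50.7 on myeloid progenitor arrays (log2 change of -2.11 ± 0.19, adjusted p = 6.34e-05). Ctsg, the granule protease cathepsin G, read 568, 1004 and 651 and 4097, 4052 and 3787 (log2 change of 2.47 ± 0.21, adjusted p = 5.64e-05). Of the sort markers, Ly6a, which encodes Sca-1, has no probe set under that symbol alone in the annotation used here. Kit read 509.7, 161 and 439.6 on LSK arrays and 339, 371 and 348 on myeloid progenitor arrays (log2 change of 0.09 ± 0.36, adjusted p = 0.888); without LSK array 2 the change was -0.43 ± 0.11 and passed the test (adjusted p = 0.0152). Markers of other cell types were mixed. Cd79a of B cells, Adgre1 of macrophages and Cxcl12 of stroma did not exceed the background limit on any wild-type array, and Cd3e of T cells and Klrd1 of NK cells exceeded it on at most 1 array of a group. C1qb, also of macrophages, exceeded the limit on 2 arrays of each group. Kdr of endothelium and Col1a1 of stroma (called lower) exceeded it on 2 and 3 LSK arrays and on no myeloid progenitor array. The mature neutrophil genes Camp, Ltf, Ngp, S100a8 and S100a9 were above it on all 6 arrays; S100a9 read 2883 and 1728 as group means and was called lower in myeloid progenitors. Nkg7 of cytotoxic lymphocytes (493 and 1703, called higher), Pf4 and Itga2b of megakaryocytes (111 and 301, called higher, and 31.4 and 24.7, not called) and Col1a2 of fibroblasts (76.4 and 16.7, called lower) were above it on all 6 arrays too. The part of such cells in the results was not tested.

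In all, 2942 of 13732 genes were called at an adjusted p under 0.05. Of these, 1367 were higher in myeloid progenitors (9.95% of the genes tested) and 1575 were lower (11.5%). Without LSK array 2 the counts were 2453 higher (17.9%) and 2215 lower (16.1%), and 2755 of the 2942 genes were called again, none in the opposite direction. The counts of list members below are to be read beside these shares, which themselves rose when LSK array 2 was left out. Without any one of the wild-type myeloid progenitor arrays, only 836 to 852 of all genes were called higher and 1157 to 1211 lower. When arrays were scaled to a common median in place of quantile normalization, the median change of all genes moved from 0.02 to 0.19 on the log2 scale and the split became 2188 higher and 1208 lower, so 64.4% of the called genes were higher, against 46.5%. Large changes were more often downward: 266 called genes were at least 4-fold higher on the fitted scale and 592 at least 4-fold lower. Of the lower calls, however, 205 allowed only a bound and 178 no fold, against 72 and 73 of the higher calls. The fitted size of such changes depends on the offset of the log2 scale. The plot of group means shows the called genes on either side of the diagonal.

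**Figure D1:**
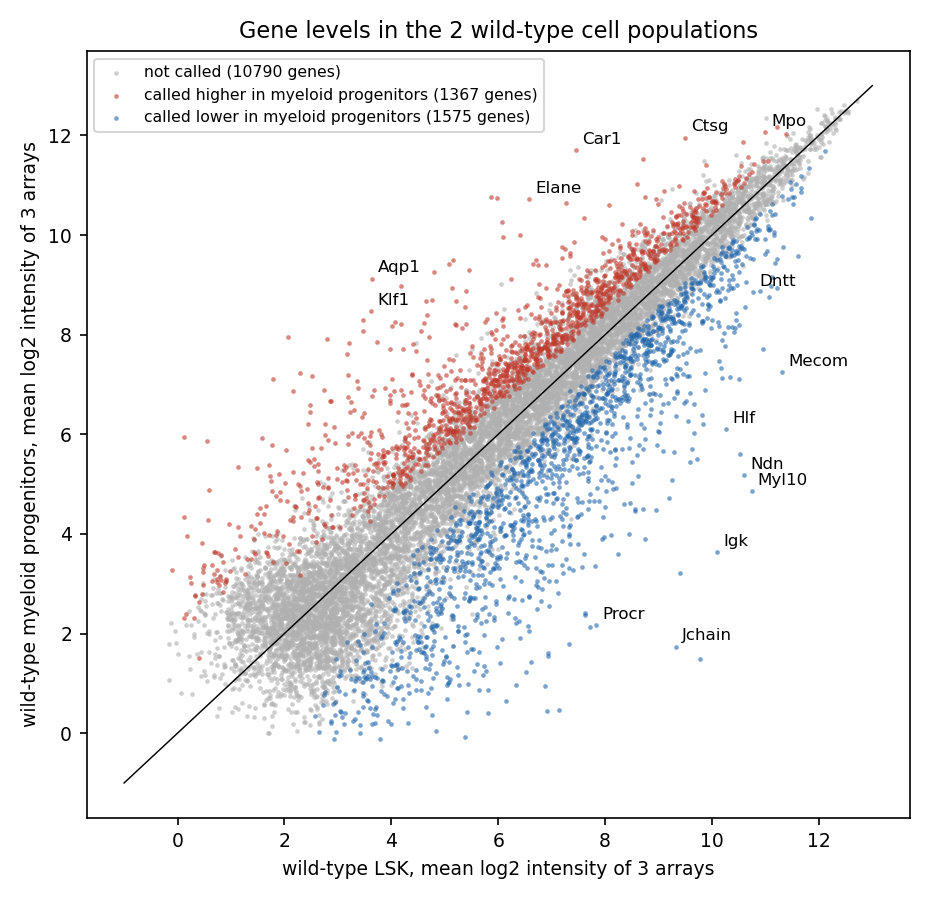
Mean log2 intensity of 3 wild-type myeloid progenitor arrays (vertical) against 3 wild-type LSK arrays (horizontal), 1 point per gene, with the 13732 tested genes coloured by call and some genes named. The 1367 red genes lie above the diagonal and the 1575 blue genes below it, and the blue points reach further from it.

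Genes of the red cell lineage rose together. Of 25 tested genes of the red cell membrane and globins, 18 were called higher and none lower, with a median log2 change of 2.40, beside 0.02 over all genes. Without LSK array 2, 16 were called higher and the median was 2.54. In these bulk samples, fewer cells of a type and less RNA per cell cannot be told apart. Ermap, a membrane protein of erythroid cells that carries a blood group antigen, read 58.2, 58.9 and 58.1 on LSK arrays and 1751, 1789 and 1694 on myeloid progenitor arrays (log2 change of 4.90 ± 0.21, adjusted p = 1.48e-06). Car1, a carbonic anhydrase of early erythroid cells, read 184, 154 and 187 and 3315, 3274 and 3448 (log2 change of 4.26 ± 0.14, adjusted p = 4.84e-07). In both genes the arrays of a group lay close together and far from those of the other group. Aqp1, the water channel of the red cell membrane, rose from 12.4 to 559 (log2 change of 5.49 ± 0.36, adjusted p = 1.45e-05), Rhd, the Rh antigen, from 9.06 to 196 (log2 change of 4.44 ± 0.78, adjusted p = 0.00314; 5.03 without LSK array 2) and Cldn13, a claudin, from 16.8 to 307 (log2 change of 4.19 ± 0.32, adjusted p = 2.83e-05). Tspo2, an erythroid membrane protein, stood at 1.41, 1.32 and 1.83 in LSK cells, under the background limit, and was at least 3.55-fold higher in myeloid progenitors (adjusted p = 9.99e-04). Tmod1, which caps actin in the membrane skeleton, read 1028 and 949 (log2 change of -0.12 ± 0.15, adjusted p = 0.644). The globin gene Hba-a2 read 621, 12.4 and 644 on LSK arrays and 592, 584 and 596 on myeloid progenitor arrays, where LSK array 2 alone was low (log2 change of 1.79 ± 1.22, adjusted p = 0.339; -0.10 ± 0.10 without that array).

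Heme synthesis and iron handling moved the same way, with 15 of 26 tested genes called higher and none lower (median 0.95); the count was 20 without LSK array 2 and 10 without myeloid progenitor array 8. Cpox, which makes a late porphyrin precursor of heme, read 134, 105 and 89.1 and 637, 693 and 704 (log2 change of 2.65 ± 0.17, adjusted p = 1.40e-05). Slc40a1, the iron exporter ferroportin, rose from 23.6 to 269 (log2 change of 3.51 ± 0.39, adjusted p = 2.18e-04), and Slc11a2, the iron importer DMT1, from 18.4 to 96.2 (log2 change of 2.38 ± 0.21, adjusted p = 6.18e-05). Blvrb, a biliverdin reductase, read 16.7, 2.68 and 30.1 on LSK arrays and 338, 231 and 251 on myeloid progenitor arrays (log2 change of 4.61 ± 0.70, adjusted p = 0.00139; 3.59 without LSK array 2, the lowest of the 6). Fth1, the ferritin heavy chain, read 2553 and 2768 (log2 change of 0.12 ± 0.14, adjusted p = 0.618).

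Among 22 erythroid transcription factors, 7 were called higher and 5 lower (8 and 6 without LSK array 2). Klf1, the master activator of erythroid genes, read 8.19, 20.7 and 11.1 on LSK arrays and 362, 356 and 343 on myeloid progenitor arrays (log2 change of 4.84 ± 0.30, adjusted p = 1.15e-05), the largest change of the list. Gata1, the factor that drives erythroid and megakaryocyte fates, read 57.1, 304 and 65.5 and 696, 715 and 756 (log2 change of 2.79 ± 0.52, adjusted p = 0.00424). The LSK arrays disagreed on Gata1, array 2 reading above the other two, yet all lay below the myeloid progenitor arrays, and without array 2 the change was 3.56. Gfi1b, a repressor needed in the same lineages, rose from 52.6 to 186 (log2 change of 1.82 ± 0.22, adjusted p = 4.08e-04). Gata2, which acts earlier in stem and progenitor cells, read 2258, 1021 and 2175 and 1394, 1323 and 1247 and was not called with all arrays (log2 change of -0.38 ± 0.27, adjusted p = 0.37); without LSK array 2 it was lower in myeloid progenitors (-0.75 ± 0.10, adjusted p = 6.10e-04). The erythropoietin receptor gene Epor stood at 11.1, 14.5 and 7.08 and 73.3, 54.5 and 60.6 (log2 change of 2.58 ± 0.28, adjusted p = 2.19e-04).

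GATA factors bind short sites with a GATA core, written here as AGATAA or TGATAA on either strand; the second spelling was added after the first windows had been seen. In RefSeq promoter windows of GRCm38.p6, from 250 bases before to 50 after each gene's annotated start, 16 of the 54 erythroid, heme and red cell genes with a window held such a site (29.6%), against 1188 of 11072 windows of all tested genes (10.7%). The share was 20.7% in the 208 genes called at least 4-fold higher and 10.8% in the 445 called at least 4-fold lower. Shares above that of all genes were also found in lists of other roles: 24.2% of the interferon response, 21.2% of the respiratory chain, 13 of 65 windows of the mitochondrial ribosomal proteins and 14.5% of the stem cell lists, against 5.41% of the granule lists. Median GC content was 59.2% in the erythroid windows and 60.3% in all. Genes to print were chosen by size of change among called list members that hold the site, with the genes of a single chromosome left out. The 250 bases before the start are printed for Ermap (chr4:119189996-119190245, minus strand, bases −67 to −62) and Klf1 (chr8:84901732-84901981, plus strand, bases −80 to −75), with the match in capitals and its place counted back from the start. The match lies on the opposite strand in both, so its letters read reversed and complemented.
Ermap: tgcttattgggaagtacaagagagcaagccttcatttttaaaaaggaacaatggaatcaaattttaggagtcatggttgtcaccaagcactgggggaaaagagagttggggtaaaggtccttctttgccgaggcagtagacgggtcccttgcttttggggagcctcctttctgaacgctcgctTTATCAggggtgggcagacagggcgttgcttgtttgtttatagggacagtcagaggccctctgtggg
Klf1: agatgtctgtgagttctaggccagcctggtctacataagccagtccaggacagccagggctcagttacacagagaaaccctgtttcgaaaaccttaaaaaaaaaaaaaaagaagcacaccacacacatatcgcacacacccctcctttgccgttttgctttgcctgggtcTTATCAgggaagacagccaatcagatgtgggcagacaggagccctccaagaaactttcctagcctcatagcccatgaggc
A match is a description of the letters and says nothing of binding.

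The granulocyte-monocyte branch was mixed, and its primary granule genes, which are active at the promyelocyte stage, were mostly higher. Of 29 tested primary granule and GMP genes, 19 were called higher and 3 lower (median 1.79), and 21 and 5 without LSK array 2. Elane, neutrophil elastase, read 111, 68.7 and 115 on LSK arrays and 2061, 1501 and 1557 on myeloid progenitor arrays (log2 change of 4.15 ± 0.24, adjusted p = 7.48e-06). Mpo, the myeloperoxidase of the same granules, was already high in LSK cells, with 1823, 2549 and 1802 against 4185, 4285 and 4399 (log2 change of 1.08 ± 0.16, adjusted p = 0.00128). Ly86, a partner of a Toll-like receptor, rose from 13.3 to 231 (log2 change of 4.12 ± 0.21, adjusted p = 3.26e-06), F13a1, a clotting factor subunit made by monocytes, from 68.5 to 991 (log2 change of 3.86 ± 0.49, adjusted p = 5.20e-04; 4.55 without LSK array 2), and Slpi, a protease inhibitor, from 25.4 to 336 (log2 change of 3.72 ± 0.32, adjusted p = 5.65e-05). Dmkn, dermokine, read 1.6, 1.32 and 1.49 in LSK cells, below the limit, and 54.2, 65.8 and 54.5 in myeloid progenitors, at least 6.96-fold higher (adjusted p = 2.15e-04). Srgn, the granule proteoglycan serglycin, stood at 3698 and 3613 (log2 change of -0.03 ± 0.13, adjusted p = 0.885).

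C/EBP factors are the main activators of granule genes, and one form of their binding site is TTGCNNAA, where N is any base, searched on either strand. This motif lay in 7 of 37 windows of the granule and granulocyte-monocyte factor lists (18.9%) and in 923 of 11072 windows of all tested genes (8.34%). It lay in 11.5% of the windows of genes called at least 4-fold higher, and in 9.44% of those at least 4-fold lower. The stem cell lists held it in 14.5% of windows, the respiratory chain in 13.5%, the interferon response in 9.09%, the mitochondrial ribosomal proteins in 4.62% and the erythroid lists in 3.7%. Median GC was 55.7% in the list and 60.3% in all. Genes to show were chosen by size of change among called list members that hold the motif, with the genes of a single chromosome left out. The stretches before the start are shown for Dmkn (chr7:30763506-30763755, plus strand, bases −231 to −224) and Slpi (chr2:164356508-164356757, minus strand, bases −241 to −234), with the match in capitals. In both it lies on the opposite strand, so the letters read reversed and complemented.
Dmkn: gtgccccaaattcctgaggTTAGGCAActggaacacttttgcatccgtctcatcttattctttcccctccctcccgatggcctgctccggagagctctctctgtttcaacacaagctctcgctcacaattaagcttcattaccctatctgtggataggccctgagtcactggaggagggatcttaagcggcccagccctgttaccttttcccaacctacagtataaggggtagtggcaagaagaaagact
Slpi: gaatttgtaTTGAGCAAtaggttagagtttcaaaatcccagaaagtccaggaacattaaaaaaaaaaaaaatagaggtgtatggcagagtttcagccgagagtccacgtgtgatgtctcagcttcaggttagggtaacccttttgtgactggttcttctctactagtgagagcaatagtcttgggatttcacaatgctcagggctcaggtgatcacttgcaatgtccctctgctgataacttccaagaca
Both matches lie near the far end of the window.

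The late neutrophil granule genes went the other way: 2 of 18 were called higher and 7 lower (median -0.77), and 1 and 7 without LSK array 2. Ltf, lactoferrin, read 173, 141 and 168 on LSK arrays and 68, 52.9 and 43 on myeloid progenitor arrays (log2 change of -1.58 ± 0.20, adjusted p = 5.33e-04). Ngp, a secondary granule protein, read 536, 996 and 629 and 266, 232 and 311 (log2 change of -1.38 ± 0.22, adjusted p = 0.00217), and Lcn2, lipocalin 2, fell from 231 to 80.2 (log2 change of -1.53 ± 0.26, adjusted p = 0.00278). Camp, the cathelicidin, also fell, from 199.5 to 93.9 (log2 change of -1.09 ± 0.16, adjusted p = 0.0013), whereas S100a8, a calcium-binding protein of mature neutrophils, read 2582 and 2274 (log2 change of -0.18 ± 0.17, adjusted p = 0.5). Fcnb, ficolin B, differed from these with 15.2, 9.9 and 21.2 against 114, 107 and 149 (log2 change of 3.05 ± 0.26, adjusted p = 5.84e-05). The summed intensity of the 18 genes ran from 7396 to 9756 on the LSK arrays and from 5423 to 5573 on the myeloid progenitor arrays; the part of mature cells in this was not tested.

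Of 16 granulocyte-monocyte transcription factors, 5 were called higher and 4 lower (5 and 6 without LSK array 2). Irf8, which directs monocyte and dendritic fates, read 27, 42.4 and 35.8 on LSK arrays and 119, 119 and 120.3 on myeloid progenitor arrays (log2 change of 1.79 ± 0.22, adjusted p = 3.80e-04). The C/EBP family split: Cebpd rose from 11.1 to 32.1 (log2 change of 1.53 ± 0.23, adjusted p = 0.00147), while Cebpb, which acts in emergency granulopoiesis, fell from 148 to 26 (log2 change of -2.51 ± 0.30, adjusted p = 3.25e-04). Klf4, a monocyte factor that is also an immediate-early gene, read 633, 656 and 644 and 85.6, 74.7 and 87.5 (log2 change of -2.97 ± 0.14, adjusted p = 2.42e-06), with no overlap. Vdr, the vitamin D receptor, fell from 167 to 41.4 (log2 change of -2.02 ± 0.48, adjusted p = 0.0151), and Myb, a factor of all progenitors, read 2591 and 3373 (log2 change of 0.38 ± 0.16, adjusted p = 0.132).

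Monocyte and macrophage genes were mixed, with 4 of 22 called higher and 4 lower; without LSK array 2 these were 7 and 5. Ccr2, the receptor that brings monocytes out of the marrow, read 61.2, 87.5 and 57.2 and 306, 321 and 317 (log2 change of 2.22 ± 0.21, adjusted p = 8.85e-05). Ms4a6c rose from 16.6 to 117 (log2 change of 2.82 ± 0.23, adjusted p = 4.42e-05) and the scavenger receptor Cd163 from 13.6 to 67.7 (log2 change of 2.32 ± 0.33, adjusted p = 9.69e-04). Cd86, a costimulatory ligand, stood below the limit in myeloid progenitors (3.16, 1.44 and 1.59 against 14.1, 22.6 and 18.5 in LSK cells), at least 1.8-fold lower (adjusted p = 0.00386). Csf1r, the receptor for macrophage colony-stimulating factor, read 20.8, 359 and 1.43 on LSK arrays and 296, 205 and 198 on myeloid progenitor arrays. LSK array 2 read above every other array. The change was not called with all arrays (log2 change of 3.38 ± 1.51, adjusted p = 0.147) and was called higher without it (5.39 ± 0.95, adjusted p = 0.00299).

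Eosinophil, basophil and mast cell genes were mostly higher: 8 of 14 tested were called higher and 2 lower (9 and 3 without LSK array 2), with a median log2 change of 2.11. Hdc, which makes histamine, read 11, 5.14 and 14 and 264, 207 and 214 (log2 change of 4.62 ± 0.33, adjusted p = 2.07e-05), and Mcpt8, a basophil protease, 26.4, 41.7 and 22.9 and 156, 147 and 135 (log2 change of 2.31 ± 0.21, adjusted p = 8.47e-05). The high-affinity IgE receptor subunits Ms4a2 (1.92, 12.9 and 1.07 against 56.2, 64.4 and 62; adjusted p = 0.0022) and Fcer1a (4.31, 1.62 and 10.1 against 26.9, 24 and 25.2; adjusted p = 0.00849) were near background in LSK cells and clearly above it in myeloid progenitors. Epx, eosinophil peroxidase, read 1.31, 5 and 8.19 and 48.9, 25.3 and 18.8 (adjusted p = 0.0081). The plot of gene values by array shows these steps.

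**Figure D2:**
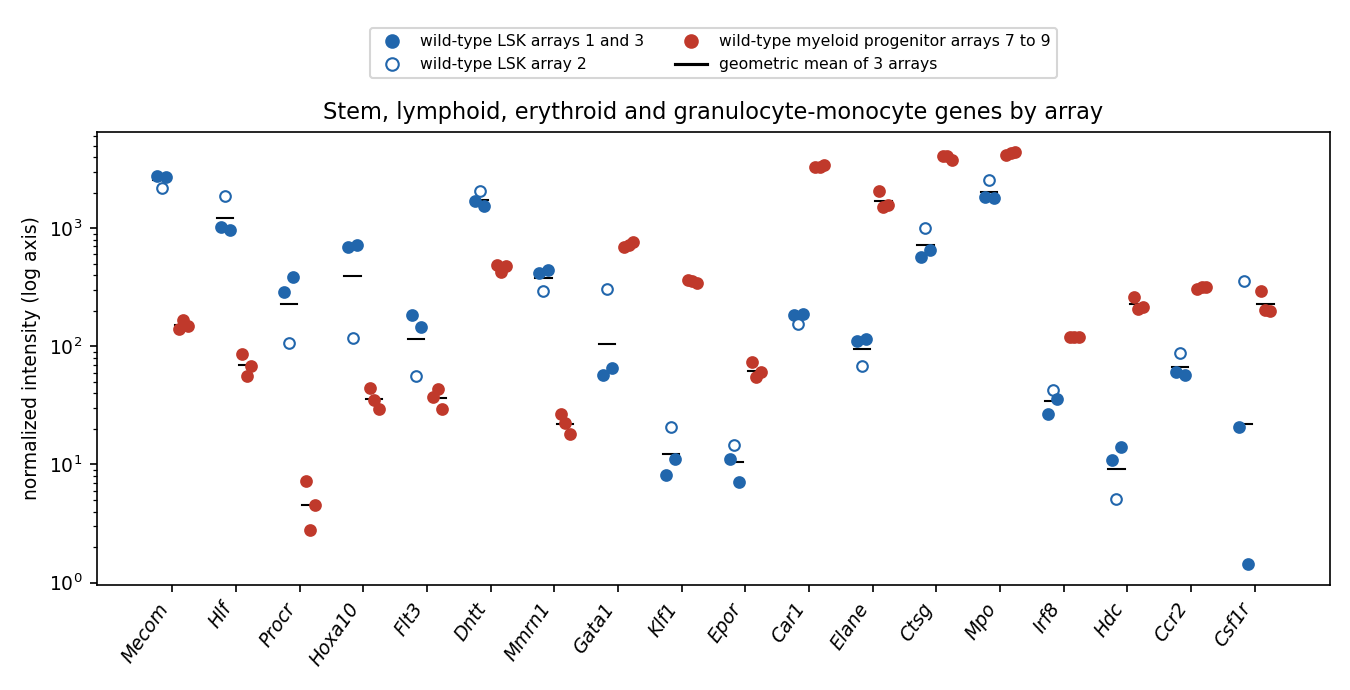
Normalized intensity (log axis) of 18 genes on each wild-type array, with LSK arrays in blue, LSK array 2 as an open circle, myeloid progenitor arrays in red and group geometric means as bars. Mecom, Hlf, Procr, Hoxa10, Flt3, Dntt and Mmrn1 were lower in myeloid progenitors and the others higher, except Csf1r, where the open circle at 359 lies above all red points.

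The transcription factors of HSCs were the reverse image. Of 28 tested, 17 were called lower in myeloid progenitors and 1, Gfi1b, higher (median -0.84); without LSK array 2 the counts were 20 and 2. Mecom, which holds stem cells in a self-renewing state, read 2779, 2172 and 2703 on LSK arrays and 140.1, 168 and 148 on myeloid progenitor arrays (log2 change of -4.07 ± 0.16, adjusted p = 1.33e-06). Hlf, a leucine zipper factor almost confined to HSCs in this tissue, read 1022, 1872 and 970.2 and 86.6, 56 and 67.7 (log2 change of -4.15 ± 0.27, adjusted p = 1.23e-05). Ndn, necdin, an imprinted growth suppressor, read 1293, 2111 and 1360.3 and 36.5, 41.4 and 31.3 (log2 change of -5.42 ± 0.38, adjusted p = 1.94e-05); 1 of its 5 other probe sets had the opposite sign. In all 3 genes the groups lay more than a log2 step of 4 apart, and the lowest LSK array was above the highest myeloid progenitor array.

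Further down the list, Gata3 read 30.9, 31.2 and 35.3 in LSK cells and lay below the limit in myeloid progenitors, at least 3.23-fold lower (adjusted p = 0.0133). Prdm16, which preserves fetal and adult HSCs, fell from 283 to 29.7 (log2 change of -3.25 ± 0.35, adjusted p = 1.95e-04; 1 of 3 other probe sets had the opposite sign), and Erg, an ETS factor of stem cells, from 178 to 20.2 (log2 change of -3.14 ± 0.29, adjusted p = 8.41e-05). Etv6 read 3525, 635 and 3623 and 2389.8, 2134 and 2100.1: LSK array 2 read far under its partners, the change was not called (log2 change of 0.13 ± 0.55, adjusted p = 0.894), and without it Etv6 was lower in myeloid progenitors (-0.70 ± 0.10, adjusted p = 8.75e-04). Hhex, a homeobox factor, was called lower only without that array too (1506 and 1015; log2 change of -0.57 ± 0.20, adjusted p = 0.0754; -0.80 ± 0.11, adjusted p = 9.68e-04 without it).

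Hox cluster genes set position in the embryo and mark immature cells in blood. Of 25 listed, 14 were tested, 7 did not pass the filter on low values and 4 had no probe set of their own. None was called higher and 7 were called lower, with all arrays and without LSK array 2 (median -1.92 and -1.80). Hoxa10 read 693, 118 and 722 on LSK arrays and 44.5, 35.3 and 29.5 on myeloid progenitor arrays (log2 change of -3.44 ± 0.57, adjusted p = 0.00245; -4.30 without LSK array 2). Hoxa5 read 133, 289 and 150.3 and 19.2, 12.6 and 11.4 (log2 change of -3.68 ± 0.33, adjusted p = 7.60e-05), Hoxa3 fell from 110.2 to 26.6 (log2 change of -2.05 ± 0.33, adjusted p = 0.00195) and Hoxb3 from 194 to 45.9 (log2 change of -2.08 ± 0.31, adjusted p = 0.00124). Hoxa2 lay below the limit in myeloid progenitors and was at least 2.58-fold lower (adjusted p = 0.00371). Hoxb5, a marker of long-term HSCs, read 15.2, 80.6 and 29 and 7.57, 1.01 and 0.99, at least 3.28-fold lower (adjusted p = 0.026), and lost the call without LSK array 2 or 3 or myeloid progenitor array 8 or 9. Hoxb4, used to expand HSCs in culture, read 39.1, 125 and 58.1 and 35.1, 29.8 and 30.4 (log2 change of -1.05 ± 0.38, adjusted p = 0.0768).

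On the cell surface, 20 of 37 tested stem cell and adhesion genes were called lower and 2 higher (median -1.23; 21 and 3 without LSK array 2). Procr, the protein C receptor that marks HSCs, read 289, 107 and 386 on LSK arrays and 7.27, 2.77 and 4.58 on myeloid progenitor arrays, at least 22.8-fold lower (adjusted p = 4.81e-04). Robo4, a guidance receptor that anchors HSCs in the marrow, was at least 5.62-fold lower (46.9, 91.9 and 41.5 against 0.883, 1.44 and 4.85; adjusted p = 7.97e-04). Fgd5 (90.8, 220.3 and 125 and 7.15, 10.8 and 7.37; adjusted p = 4.44e-04), Esam (118, 187 and 85.8 and 9.54, 6.99 and 8.45; adjusted p = 8.95e-05) and Emcn (195, 77.3 and 164 and 10.7, 17.6 and 11.7; adjusted p = 2.20e-04), which HSCs share with endothelium, also fell to near the limit. Prom1, which encodes CD133, opposed the list with 27.4, 59.7 and 45.8 against 449.5, 461 and 492 (log2 change of 3.47 ± 0.27, adjusted p = 3.13e-05). Abcg2, the transporter behind dye exclusion by HSCs, read 626 and 617 (log2 change of -0.02 ± 0.22, adjusted p = 0.96), and Cd81 read 3105 and 2914 (log2 change of -0.09 ± 0.14, adjusted p = 0.703).

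Of 32 lymphoid priming genes, 9 were called lower and none higher (12 and 2 without LSK array 2; median -0.38). Dntt, which adds bases at antigen receptor joints, read 1692, 2049 and 1539 on LSK arrays and 488, 427 and 475 on myeloid progenitor arrays (log2 change of -1.92 ± 0.16, adjusted p = 4.18e-05). Flt3, the receptor that marks lymphoid-primed progenitors, read 185, 56.5 and 146 and 37.6, 43.4 and 29.5 (log2 change of -1.66 ± 0.38, adjusted p = 0.0134), and lost the call without myeloid progenitor array 9. Cd27, a receptor of the tumor necrosis factor family, fell from 341 to 132 (log2 change of -1.37 ± 0.31, adjusted p = 0.0122) and Lsp1, an actin-binding protein of leukocytes, from 88.7 to 20.9 (log2 change of -2.08 ± 0.30, adjusted p = 0.00116). Factors that open lymphoid genes but serve other lineages as well were not called: Ikzf1 read 1202 and 1403 (log2 change of 0.22 ± 0.14, adjusted p = 0.294) and Bcl11a 1137 and 1071 (log2 change of -0.09 ± 0.15, adjusted p = 0.734).

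Immunoglobulin and joining chain transcripts made up 4 of the 12 genes named for the largest fall. Igkv8-30, a kappa variable segment, read 768, 1257 and 695 on LSK arrays and 2.63, 3.52 and 2.42 on myeloid progenitor arrays, at least 87.3-fold lower (adjusted p = 4.84e-07). Jchain, which joins IgA and IgM polymers, read 604, 778 and 557 and 6.64, 0.708 and 7.89, at least 63.7-fold lower (adjusted p = 1.03e-04). Igk fell from 1092 to 12.4 (log2 change of -6.46 ± 0.27, adjusted p = 1.37e-06), and Igha, the IgA constant region, read 581, 755 and 694 and 9.21, 12.6 and 6.83 (adjusted p = 5.24e-06). Of 14 tested plasma cell genes, a list drawn up after these values had been seen, 7 were lower and 1 higher, with and without LSK array 2. Their summed intensity ran from 5319 to 5736 on the LSK arrays and from 1773 to 1915 on the myeloid progenitor arrays. Within that list, Irf4 read 194, 88 and 192 and 11, 8.56 and 8.59 and Sdc1 494, 194 and 489 and 185, 104 and 168, while Xbp1 read 125 and 132 and was not called. These are transcription factors and a surface protein of plasma cells. The part of plasma cells in the LSK samples was not tested. Mature B cell genes gave 2 of 11 called lower and none higher (3 and 1 without LSK array 2), 1 of the 2 being Jchain, and T and NK cell genes 2 of 15 in each direction (1 lower and 4 higher without that array, none lower without LSK array 1 or 3). The shares over all genes tested were 9.95% higher and 11.5% lower, and 17.9% and 16.1% without LSK array 2. One of the mature B cell calls was lost without LSK array 3 or myeloid progenitor array 7 or 9.

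Megakaryocyte and platelet genes were more often lower than higher, with 9 of 28 called lower and 2 higher (12 and 4 without LSK array 2; median -0.65). Mmrn1, a platelet adhesion protein, read 414, 294 and 439.7 on LSK arrays and 26.6, 22.3 and 18.2 on myeloid progenitor arrays (log2 change of -4.09 ± 0.21, adjusted p = 3.23e-06). Angpt1, a ligand of the receptor Tek, fell from 1458 to 292 (log2 change of -2.32 ± 0.19, adjusted p = 4.20e-05), F2r, the thrombin receptor, from 2329 to 692 (log2 change of -1.75 ± 0.16, adjusted p = 8.06e-05) and Selp, P-selectin, from 257 to 65.7 (log2 change of -1.97 ± 0.30, adjusted p = 0.00148). Pf4, platelet factor 4, rose with 84.3, 190.2 and 86.1 against 295, 328 and 283 (log2 change of 1.44 ± 0.29, adjusted p = 0.00628), and Fli1, which activates platelet genes, read 702 and 703 (log2 change of 0.00 ± 0.26, adjusted p = 0.997).

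Stromal and endothelial genes, which sorted blood cells should lack, gave 5 of 17 called lower and 1 higher (4 and 2 without LSK array 2). Col1a2, a collagen chain of fibroblasts, read 57.6, 154 and 50.3 on LSK arrays and 17.6, 16.1 and 16.5 on myeloid progenitor arrays (log2 change of -2.19 ± 0.42, adjusted p = 0.00501), and Sparc 27.1, 74.5 and 35.8 and 8.32, 7.37 and 5.75 (adjusted p = 0.00286). LSK array 2 read highest for both. The summed intensity of the 17 genes ran from 423 to 755 on the LSK arrays and from 228 to 253 on the others. Cxcl12 lay under the limit on all 6 arrays, and the part of such cells in the results was not tested. Vcam1, also carried by macrophages, was higher in myeloid progenitors, with 9.9, 16.6 and 5.04 against 105, 81.1 and 77.3 (log2 change of 3.21 ± 0.37, adjusted p = 2.76e-04).

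Receptors for cytokines and growth factors fell more often than they rose: 10 of 41 were called lower and 2 higher, and without LSK array 2 the counts were 19 and 5. The lower count dropped to 6 without myeloid progenitor array 9. Tek, the angiopoietin receptor of quiescent HSCs, read 417, 499 and 487 and 108, 82.2 and 84.4 (log2 change of -2.36 ± 0.17, adjusted p = 1.99e-05). Tgfbr2 fell from 403 to 138 (log2 change of -1.55 ± 0.17, adjusted p = 2.41e-04) and Bmpr2 from 759 to 292 (log2 change of -1.38 ± 0.14, adjusted p = 1.21e-04). Both receive ligands of the TGF-beta family. Igf1r read 1585, 358 and 1559 and 956, 926 and 904, where LSK array 2 alone lay below the others (log2 change of -0.05 ± 0.47, adjusted p = 0.959), and was lower without it (-0.76 ± 0.09, adjusted p = 5.16e-04). Cxcr4, which holds HSCs in the marrow, read 2159 and 1642 (log2 change of -0.40 ± 0.13, adjusted p = 0.0551); without LSK array 2 it was called lower (-0.38 ± 0.10, adjusted p = 0.0172).

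**Figure D3:**
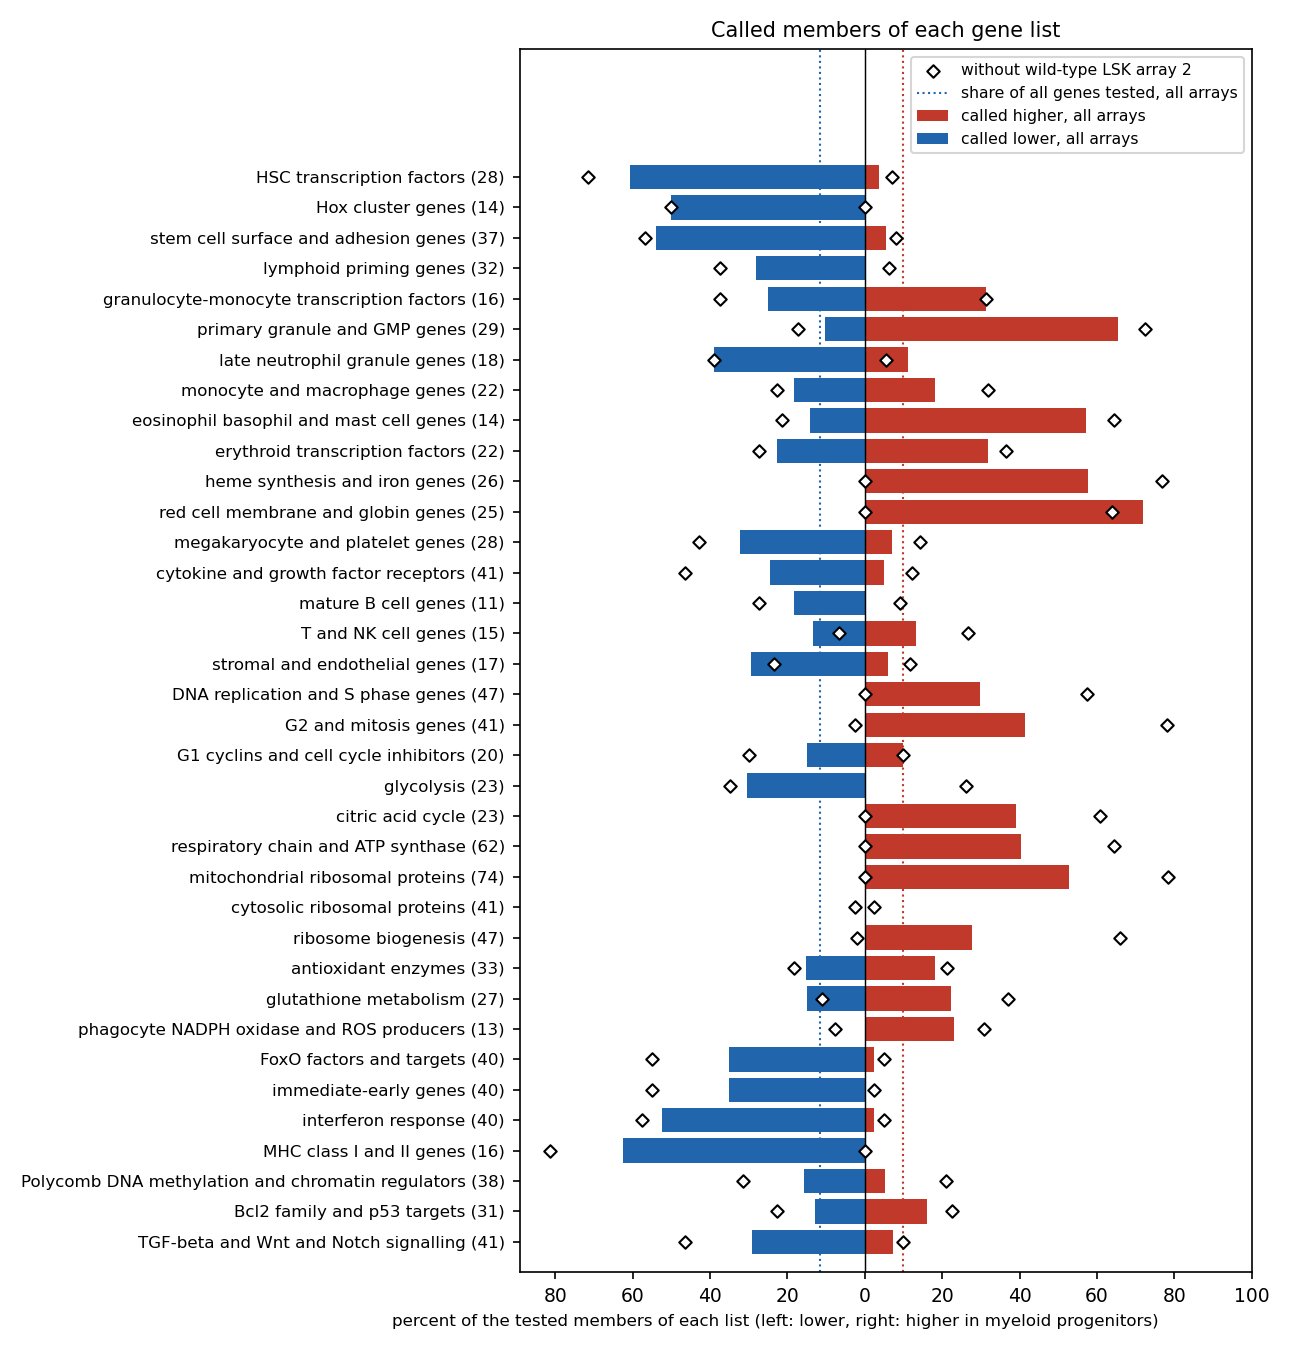
Percent of the tested members of each list (number in brackets) called higher (right, red) or lower (left, blue) in wild-type myeloid progenitors, with diamonds for the same fit without LSK array 2 and dotted lines for the share of all genes tested, 9.95% higher and 11.5% lower. Red cell, heme, primary granule, S phase, mitosis and mitochondrial lists extend mostly to the right, and stem cell, Hox, interferon and MHC lists mostly to the left. The late neutrophil granule list extends more to the left, and erythroid transcription factors and G1 genes extend both ways.

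Genes of the dividing cell were higher in myeloid progenitors. Of 41 G2 and mitosis genes, 17 were called higher and none lower (median 0.54). The count was 32 without LSK array 2 and 11 without myeloid progenitor array 8 or 9. Cenpa, the centromeric histone, read 238, 198 and 242 on LSK arrays and 627, 602 and 653 on myeloid progenitor arrays (log2 change of 1.48 ± 0.15, adjusted p = 1.13e-04), although both of its other probe sets had the opposite sign (log2 changes -0.13 and -0.49). The mitotic kinase Aurka rose from 24.9 to 70.7 (log2 change of 1.50 ± 0.22, adjusted p = 0.00121), and the mitotic kinesin Kif20a from 39.6 to 83.2 (log2 change of 1.07 ± 0.19, adjusted p = 0.00338). Mki67, which encodes the Ki-67 antigen, read 790.1, 952 and 839 and 1198, 1082 and 1089, with no overlap but a small difference (log2 change of 0.39 ± 0.14, adjusted p = 0.0864; 0.46 ± 0.11, adjusted p = 0.013 without LSK array 2). Top2a read 1208 and 1594 (log2 change of 0.40 ± 0.19, adjusted p = 0.169).

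Of 47 DNA replication and S phase genes, 14 were called higher and none lower. That count rose to 27 without LSK array 2 and dropped to between 6 and 7 without any one of the wild-type myeloid progenitor arrays, and was 9 without FoxO-deficient array 5 or 10, which enter the spread only. Ccne1, the cyclin that opens S phase, read 43.2, 42.7 and 34.6 on LSK arrays and 298, 306 and 242 on myeloid progenitor arrays (log2 change of 2.81 ± 0.16, adjusted p = 6.60e-06), and its sister Ccne2 rose from 37.1 to 113 (log2 change of 1.61 ± 0.25, adjusted p = 0.00148). Pcna, the replication clamp, read 1884 and 2587 (log2 change of 0.46 ± 0.18, adjusted p = 0.11).

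Among 20 G1 cyclins and inhibitors, 2 were called higher and 3 lower (2 and 6 without LSK array 2, and 4 and 2 with median scaling). These counts stand beside shares of 9.95% higher and 11.5% lower over all genes tested, and 17.9% and 16.1% without LSK array 2. With median scaling the counts over all 13732 genes were 2188 higher and 1208 lower. Cdkn1a, the inhibitor p21, read 523, 1358 and 636 and 115, 109 and 115 (log2 change of -2.76 ± 0.30, adjusted p = 1.98e-04), and Ccnd1, cyclin D1, fell from 176 to 44.6 (log2 change of -1.98 ± 0.38, adjusted p = 0.00503). Cdk6, a kinase of the G1 phase, rose from 659.7 to 1218 (log2 change of 0.88 ± 0.15, adjusted p = 0.00259).

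Mitochondrial genes rose as a group, by small steps. Of 74 mitochondrial ribosomal protein genes, 39 were called higher and none lower (median 0.87), and 58 without LSK array 2. The nuclear genes of the respiratory chain and ATP synthase gave 25 of 62 higher and none lower (median 0.48), 40 without LSK array 2 and between 11 and 13 without any one of the myeloid progenitor arrays. The citric acid cycle gave 9 of 23 higher and none lower, 14 without LSK array 2 and between 4 and 6 without LSK array 1 or any one of the myeloid progenitor arrays. Mrpl12 read 161, 143 and 170.2 on LSK arrays and 513, 412 and 514 on myeloid progenitor arrays (log2 change of 1.60 ± 0.17, adjusted p = 1.91e-04), and Mrps28 163, 134 and 180.5 and 489.7, 439 and 486 (log2 change of 1.58 ± 0.17, adjusted p = 2.18e-04). Cycs, cytochrome c, rose from 709.7 to 1595 (log2 change of 1.17 ± 0.17, adjusted p = 9.74e-04), and Uqcr11, a subunit of complex III, from 97.7 to 259 (log2 change of 1.41 ± 0.18, adjusted p = 4.81e-04). Dlst, of the 2-oxoglutarate dehydrogenase complex, read 143, 82.1 and 92.2 and 324, 351 and 299.5 (log2 change of 1.66 ± 0.22, adjusted p = 6.24e-04), and Dld, a subunit it shares with pyruvate dehydrogenase, rose from 59.2 to 136 (log2 change of 1.20 ± 0.18, adjusted p = 0.00128). Some members were not called: Cox7a2 read 4399 and 5414 (log2 change of 0.30 ± 0.13, adjusted p = 0.134) and Atp5a1 3639 and 3402 (log2 change of -0.10 ± 0.15, adjusted p = 0.691).

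Ribosome biogenesis showed the same direction, with 13 of 47 genes called higher and none lower. Without LSK array 2 there were 31 higher and 1 lower, and without any one of the myeloid progenitor arrays 7 to 8 higher. Nhp2, of the box H/ACA particle, read 136, 76.5 and 163 and 340.0, 334 and 288 (log2 change of 1.43 ± 0.25, adjusted p = 0.00311), and Utp4, of the small-subunit processome, rose from 93.2 to 215 (log2 change of 1.21 ± 0.17, adjusted p = 8.55e-04). None of 41 tested cytosolic ribosomal protein genes was called by limma's test, and 1 in each direction was called without LSK array 2 (median 0.04). Of 76 listed, 34 had no probe set of their own and 1 did not pass the filter. With median scaling 2 were called higher and the median was 0.20, beside 0.19 over all genes. Rpl38 stood at 5742 and 5742 (log2 change of 0.00 ± 0.12, adjusted p = 0.999). ETS factors bind CCGGAAGT, a motif of many housekeeping promoters, searched on either strand. It lay in 11 of 65 windows of mitochondrial ribosomal genes (16.9%), in 11.2% of the 1094 windows of genes called higher, in 3.04% of the 1250 of genes called lower, and in 7.6% of all. Among genes with at least a 4-fold change the shares were lower, 2.88% of those called higher and 0.674% of those called lower. The respiratory chain list held it in 9.62%, the interferon response in 6.06%, the stem cell lists in 3.64%, and no window of the erythroid or granule lists had it.

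Glycolysis split by gene. Of 23 tested, 7 were called lower and none higher, and without LSK array 2 there were 8 lower and 6 higher, with median scaling 6 and 3. Eno2, an enolase, read 207, 228 and 237 on LSK arrays and 11.5, 10 and 9.57 on myeloid progenitor arrays (adjusted p = 1.38e-05). Pdk4, a kinase that shuts off pyruvate entry to mitochondria and a FoxO target, read 250.1, 155 and 244 and 12.7, 4.68 and 1.44 (adjusted p = 0.00101). Aldoc, an aldolase, was at least 2.2-fold lower (adjusted p = 5.46e-04), and Ldhb, the lactate dehydrogenase of the heart type, fell from 647 to 113 (log2 change of -2.51 ± 0.38, adjusted p = 0.0015). The glucose transporter Slc2a1 read 1663, 1265 and 2239.7 and 909, 705 and 637 (log2 change of -1.18 ± 0.22, adjusted p = 0.00434). The core enzyme Pgk1 read 2466 and 2211 (log2 change of -0.16 ± 0.17, adjusted p = 0.564), and Pgam1 1507 and 1822 (log2 change of 0.27 ± 0.12, adjusted p = 0.148; called higher without LSK array 2, 0.26 ± 0.09, adjusted p = 0.0446). The plot of changes by list sets these groups side by side.

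**Figure D4:**
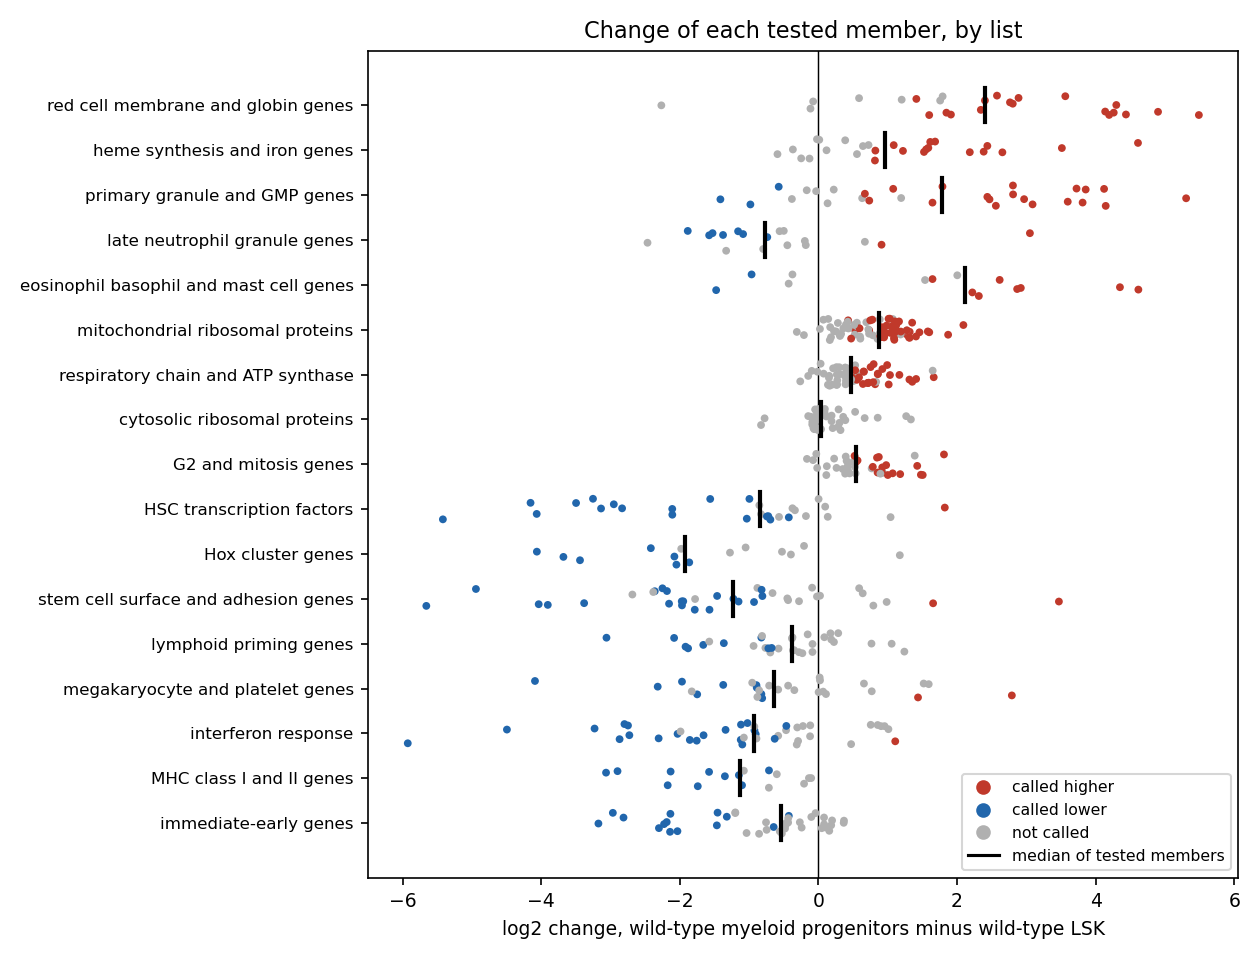
Log2 change of each tested member (wild-type myeloid progenitors minus LSK) in 17 lists, red where called higher, blue where called lower and grey otherwise, with black bars at the list medians. The red cell list has its median at 2.40 and the Hox list at -1.92, while the mitochondrial lists sit close together just right of 0 and cytosolic ribosomal proteins at 0.04.

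ROS metabolism is the theme of the study. Antioxidant enzymes gave 6 of 33 called higher and 5 lower, with a median of 0.00, next to that of all genes. The counts were 7 and 6 without LSK array 2 and 8 and 2 with median scaling. Without any one of the myeloid progenitor arrays, 3 to 4 were higher and 3 to 4 lower. Of all genes tested, 9.95% were called higher and 11.5% lower, and 17.9% and 16.1% without LSK array 2. With median scaling 2188 of all 13732 genes were higher and 1208 lower. Without any one of the myeloid progenitor arrays, 836 to 852 of all genes were higher and 1157 to 1211 lower. Msrb1, which repairs oxidized methionine, read 65.3, 96.1 and 76.8 on LSK arrays and 195, 181 and 150.4 on myeloid progenitor arrays (log2 change of 1.15 ± 0.19, adjusted p = 0.00216). Prdx3, the mitochondrial peroxiredoxin, read 379, 152 and 282 and 511, 539 and 495 (log2 change of 1.03 ± 0.29, adjusted p = 0.032), a call lost without myeloid progenitor array 7, 8 or 9. In the other direction, Sesn3, a sestrin and FoxO target, read 128, 174 and 154 and 50.4, 58.4 and 44.6 (log2 change of -1.57 ± 0.18, adjusted p = 2.54e-04), and Srxn1, sulfiredoxin, read 273, 150.5 and 226 and 123, 85.6 and 95.3 (log2 change of -1.07 ± 0.23, adjusted p = 0.00861). Gpx1 read 3044 and 3491 (log2 change of 0.20 ± 0.17, adjusted p = 0.451), Txn1 2508 and 2501 (log2 change of -0.00 ± 0.13, adjusted p = 0.987), and Sod1 5463, 2059 and 5627 and 5640.3, 6049.5 and 6081, where LSK array 2 alone was low (log2 change of 0.57 ± 0.33, adjusted p = 0.255).

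Glutathione metabolism gave 6 of 27 higher and 4 lower, 10 and 3 without LSK array 2, and 2 to 3 higher without any one of the myeloid progenitor arrays. Gclm, the regulatory subunit of the enzyme that starts glutathione synthesis, read 318, 95.3 and 264 and 411, 541 and 461 (log2 change of 1.23 ± 0.37, adjusted p = 0.043), a call lost without FoxO-deficient LSK array 4, 5 or 6 or myeloid progenitor array 7, 8 or 9 or FoxO-deficient myeloid progenitor array 10, 11 or 12. Idh1, a source of NADPH, rose from 808 to 1886 (log2 change of 1.22 ± 0.27, adjusted p = 0.0117), and Gstk1, a transferase, fell from 198 to 87.3 (log2 change of -1.18 ± 0.19, adjusted p = 0.00226). Gsr, glutathione reductase, read 1676, 255 and 1854 and 2792, 2898 and 2960.0: it was not called with all arrays (log2 change of 1.64 ± 0.61, adjusted p = 0.0855) and was higher without LSK array 2 (0.71 ± 0.09, adjusted p = 6.69e-04). Of the 13 ROS-producing enzymes tested, 3 were higher and none lower (4 and 1 without LSK array 2), namely Mpo, Epx and Cybb. Cybb, the catalytic subunit of the phagocyte oxidase, read 34.5, 28.7 and 44.8 and 68.8, 69.2 and 61.9 (log2 change of 0.91 ± 0.29, adjusted p = 0.0493; 1 of 2 other probe sets had the opposite sign), and its call was lost without LSK array 1 or 2 or FoxO-deficient LSK array 5 or 6 or myeloid progenitor array 7, 8 or 9 or FoxO-deficient myeloid progenitor array 10, 11 or 12.

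The interferon response was lower in myeloid progenitors. Of 40 tested genes, 21 were called lower and 1 higher (median -0.92), and 23 and 2 without LSK array 2. Iigp1, an interferon-induced GTPase, read 101, 159 and 100.3 on LSK arrays and 0.782, 5.77 and 1.59 on myeloid progenitor arrays, at least 11.7-fold lower (adjusted p = 1.41e-04). Ifitm1, a membrane protein that blocks virus entry, read 1555, 2709.7 and 1823 and 249.8, 210.4 and 177 (log2 change of -3.23 ± 0.23, adjusted p = 2.01e-05). Gbp2, a guanylate-binding protein, fell from 98.8 to 13.5 (log2 change of -2.87 ± 0.27, adjusted p = 8.95e-05), and Rsad2, the antiviral enzyme viperin, from 143 to 20.5 (log2 change of -2.80 ± 0.46, adjusted p = 0.00228). LSK array 2 read highest of the wild-type arrays for these 4 genes, and without it the fitted log2 changes of Gbp2 and Rsad2 were -2.60 and -2.43. Trim25 read 814 and 655 (log2 change of -0.31 ± 0.15, adjusted p = 0.173).

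Interferon-stimulated genes carry a response element whose core is written here as TTCNNTTTC on either strand. It lay in 19 of 33 windows of the list (57.6%) and in 791 of 11072 of all tested genes (7.14%). In genes called at least 4-fold lower the share was 8.31%, and in the other lists it ran from 5.56% (erythroid) to 12.7% (stem cell). Median GC was 53% in the list. Genes to print were chosen by size of change among called list members that hold the motif, with the genes of a single chromosome left out. The stretches before the start are those of Gbp2 (chr3:142620413-142620662, plus strand, bases −58 to −50) and Rsad2 (chr12:26456453-26456702, minus strand, bases −119 to −111), with the match in capitals, on the strand of the gene in both. Each motif was counted on its own, whether or not another overlapped it. The other motifs searched, on either strand, were CCACACCC of KLF factors, in 1.85% of erythroid and 15.2% of interferon windows (3.86% of all), TGTGGT of RUNX factors, in 20.4% of erythroid and 9.09% of stem cell windows (12.9% of all), and TTTCCCGC of E2F factors, in 1.92% of windows of genes called higher (2.02% of all).
Gbp2: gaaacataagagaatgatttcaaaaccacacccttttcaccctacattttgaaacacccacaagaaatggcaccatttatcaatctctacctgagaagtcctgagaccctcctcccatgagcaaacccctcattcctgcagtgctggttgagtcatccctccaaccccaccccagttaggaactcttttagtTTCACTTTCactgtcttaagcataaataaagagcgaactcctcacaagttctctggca
Rsad2: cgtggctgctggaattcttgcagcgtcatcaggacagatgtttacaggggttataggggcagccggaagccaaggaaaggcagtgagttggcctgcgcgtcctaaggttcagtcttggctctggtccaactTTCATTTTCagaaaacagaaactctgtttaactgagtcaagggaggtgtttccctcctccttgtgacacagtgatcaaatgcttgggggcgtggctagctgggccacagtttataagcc

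MHC genes present peptides and many answer to interferon. Of 16 tested, 10 were called lower and none higher (13 without LSK array 2), with a median of -1.13; 7 were lower without myeloid progenitor array 7. The class II chain H2-Aa read 239, 835 and 243 on LSK arrays and 45.3, 41.8 and 43.6 on myeloid progenitor arrays (log2 change of -3.06 ± 0.41, adjusted p = 7.11e-04; -2.47 without LSK array 2), H2-Eb1 fell from 147 to 19.7 (log2 change of -2.90 ± 0.36, adjusted p = 4.36e-04), and Cd74, the invariant chain, from 282 to 62.3 (log2 change of -2.18 ± 0.28, adjusted p = 5.02e-04). H2-Ob, which tunes peptide loading, read 479.9, 940.0 and 395 and 125, 113 and 149 (log2 change of -2.13 ± 0.30, adjusted p = 9.07e-04). LSK array 2 was highest in each, but arrays 1 and 3 also lay above all 3 myeloid progenitor arrays. B2m, the light chain of class I, read 4904 and 4247 (log2 change of -0.21 ± 0.15, adjusted p = 0.365).

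FoxO factors hold stem cells in quiescence and induce genes of stress resistance. Of 40 FoxO factors and targets, 14 were called lower and 1 higher (median -0.57); without LSK array 2 the counts were 22 and 2, and without myeloid progenitor array 7 or 9 the lower counts were 9 and 7. Foxo1 itself read 53.8, 265 and 79.5 on LSK arrays and 38.7, 23.9 and 14 on myeloid progenitor arrays (log2 change of -2.15 ± 0.58, adjusted p = 0.026; -1.48 without LSK array 2), a call lost without myeloid progenitor array 8 or 9. Foxo3 read 2479.8, 2108 and 2715 and 1913, 1837 and 1832 (log2 change of -0.38 ± 0.15, adjusted p = 0.0939; -0.48 ± 0.10, adjusted p = 0.00701 without LSK array 2). Pink1, a mitochondrial quality-control kinase, read 340.1, 1134 and 357 and 148, 191 and 168 (log2 change of -1.62 ± 0.42, adjusted p = 0.021), lost without myeloid progenitor array 7 or 9. Cited2, a target in HSCs, read 1961 and 2054 (log2 change of 0.07 ± 0.14, adjusted p = 0.784).

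Immediate-early genes respond within minutes to stimuli, tissue dissociation among them. Of 40 tested, 14 were called lower and none higher (median -0.54), and 22 and 1 without LSK array 2. The nuclear receptors Nr4a1 (800.1, 264 and 681 against 66.4, 79.4 and 78.6; log2 change of -2.81 ± 0.48, adjusted p = 0.00262), Nr4a2 (1458, 1286 and 1406 against 311, 307 and 229.9; log2 change of -2.30 ± 0.16, adjusted p = 2.13e-05; 1 of 5 other probe sets had the opposite sign) and Nr4a3 (1354, 1136 and 1399 against 139, 147 and 143; log2 change of -3.17 ± 0.54, adjusted p = 0.00283) fell with no overlap between the groups. Egr3 fell from 653 to 143 (log2 change of -2.19 ± 0.52, adjusted p = 0.0151). Nfkbia, the NF-kB inhibitor, read 3442 and 3835 (log2 change of 0.16 ± 0.17, adjusted p = 0.557), and Zfp36l2 3075 and 3254 (log2 change of 0.08 ± 0.16, adjusted p = 0.768).

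Genes of TGF-beta, Wnt and Notch signalling gave 12 of 41 lower and 3 higher (19 and 4 without LSK array 2, and 5 higher without LSK array 3). The Notch target Hes1 read 73.3, 36.3 and 59.6 and 2.74, 12.1 and 5.75 (adjusted p = 0.0115), the Notch ligand Jag2 fell from 95.4 to 6.61 (log2 change of -3.85 ± 0.74, adjusted p = 0.00529; -4.63 without LSK array 2) and the Wnt receptor Fzd4 from 59.7 to 9.81 (log2 change of -2.60 ± 0.45, adjusted p = 0.00302). Ltbp1, which stores latent TGF-beta in the matrix, had the largest rise of the genes named by size, with 4.04, 1.48 and 12.3 in LSK cells, near the limit, and 208, 273 and 264 in myeloid progenitors (adjusted p = 2.41e-04). Chromatin regulators gave 2 of 38 higher and 6 lower, 8 and 12 without LSK array 2, but 6 and 4 with median scaling. Beside them stand 9.95% higher and 11.5% lower over all genes tested, and 17.9% and 16.1% without LSK array 2. With median scaling, 2188 of all 13732 genes were higher and 1208 lower. Hmga2, an architectural protein of fetal and young HSCs, read 451, 292 and 460.4 and 105, 105 and 69.5 (log2 change of -2.11 ± 0.23, adjusted p = 2.20e-04), and Smarca2, a remodelling ATPase, fell from 582 to 194 (log2 change of -1.58 ± 0.19, adjusted p = 4.14e-04).

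The Bcl2 family and p53 targets gave 5 of 31 higher and 4 lower (7 and 7 without LSK array 2, and 2 higher without any one of the myeloid progenitor arrays). Over all genes tested the shares were 9.95% higher and 11.5% lower, and 17.9% and 16.1% without LSK array 2. The higher count over all 13732 genes fell to between 836 and 852 without any one of the myeloid progenitor arrays. Pmaip1, the death activator Noxa, read 119, 27.2 and 73.9 on LSK arrays and 344, 354 and 345 on myeloid progenitor arrays (log2 change of 2.49 ± 0.43, adjusted p = 0.00277; 1.89 without LSK array 2). Zmat3, a p53-induced RNA-binding protein, rose from 32.7 to 146 (log2 change of 2.16 ± 0.46, adjusted p = 0.00878; 1.49 without LSK array 2), while Trp53inp1 fell from 898 to 311 (log2 change of -1.53 ± 0.14, adjusted p = 8.85e-05; its other probe set had the opposite sign, at 0.03). Mcl1, a survival factor of HSCs, was not called with all arrays (2112 and 1803; log2 change of -0.23 ± 0.24, adjusted p = 0.559) and lower without LSK array 2 (-0.56 ± 0.08, adjusted p = 0.00122).

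Some of the largest changes lay outside these groups. Abcg3, a transporter, read 215, 81.7 and 161 on LSK arrays and 1.62, 0.883 and 1.86 on myeloid progenitor arrays, at least 14.1-fold lower (adjusted p = 2.63e-05). Ccn3, a matricellular protein reported as a regulator of HSC self-renewal, read 148, 83.8 and 139 and 1.75, 1.01 and 1.44, at least 12-fold lower (adjusted p = 3.19e-05). Myl10, a myosin light chain, fell from 1710.0 to 29 (log2 change of -5.88 ± 0.45, adjusted p = 2.83e-05), and the kinase Yes1 was at least 7.04-fold lower (adjusted p = 3.78e-04). On the other side, Slc45a3, a membrane transporter, read 1.49, 0.883 and 0.983 and 57.8, 59 and 69.3, at least 7.43-fold higher (adjusted p = 8.19e-05). Pklr, the pyruvate kinase of red cells and liver, rose from 62.8 to 1715 (log2 change of 4.77 ± 0.43, adjusted p = 7.62e-05), Atp1b2, a sodium pump subunit, from 11 to 312 (log2 change of 4.82 ± 0.74, adjusted p = 0.00154), Plxdc1 from 6.91 to 242 (log2 change of 5.13 ± 0.73, adjusted p = 9.90e-04; 4.08 without LSK array 2) and Far2, a fatty acyl reductase, from 18.2 to 501 (log2 change of 4.78 ± 0.72, adjusted p = 0.00135; 3.70 without LSK array 2). Asb17 (2.69, 1.16 and 13 against 179, 101 and 145; adjusted p = 7.11e-04) and Tlcd4 (1.66, 12.4 and 5.75 against 111, 203 and 153; adjusted p = 0.00217) rose from near background, and Wfdc18 fell to below the limit, at least 15.9-fold lower (adjusted p = 1.42e-04).

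The group means of the same cell types from FoxO-deficient mice share no array with those of this comparison. In the deficient mice, 2695 genes were called (19.6%), 1406 higher and 1289 lower in myeloid progenitors. In both genotypes, 1684 genes were called, which is 57.2% of the wild-type calls and 62.5% of the deficient ones. Calls of both genotypes used the same spread per gene, taken over all arrays, so this overlap does not come from independent sets. The sign was the same for 2783 of the 2942 wild-type calls (94.6%) and for 65.6% of the genes not called. Across all genes the changes correlated at r = 0.659, as a description, since genes are not independent replicates. Klf1 changed by 4.48 ± 0.30 in the deficient mice, Car1 by 4.76 ± 0.14, Mecom by -3.75 ± 0.16 and Elane by 3.51 ± 0.24, beside the wild-type values of 4.84, 4.26, -4.07 and 4.15.

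The change itself differed between genotypes for 118 genes (0.859% of those tested), and for 430 without LSK array 2; 67 of the 118 were among the wild-type calls. Immediate-early genes held 28 of the 118, with a median change of -4.23 in the deficient mice beside -0.54 in wild type. Nr4a1 read 866, 849 and 833 on deficient LSK arrays 4, 5 and 6 and 2.94, 1.24 and 0.89 on deficient myeloid progenitor arrays 10, 11 and 12 (log2 difference between the changes -6.35 ± 0.67, adjusted p = 0.00173). Ptgs2, the inducible cyclooxygenase, read 380.2, 764 and 785 and 117, 143 and 161 in wild type and 1381, 1279 and 1373 and 6.53, 4.42 and 1.69 in the deficient groups (difference -6.39 ± 0.64, adjusted p = 0.00128). Rgs1, a brake on chemokine signalling, changed by -2.21 ± 0.37 in wild type and -6.82 ± 0.37 in deficient mice (difference -4.61 ± 0.52, adjusted p = 0.00239), and Nfkbiz by -1.46 ± 0.19 and -6.00 ± 0.19 (difference -4.55 ± 0.27, adjusted p = 3.52e-05). In these 4 genes the deficient myeloid progenitor arrays were the lowest of the 12. Values that low depend on the offset of the log2 scale, so the differences are fitted values and no bounds. The Mx-Cre transgene and the FoxO loss go together in the deficient groups and cannot be told apart.

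**Figure D5:**
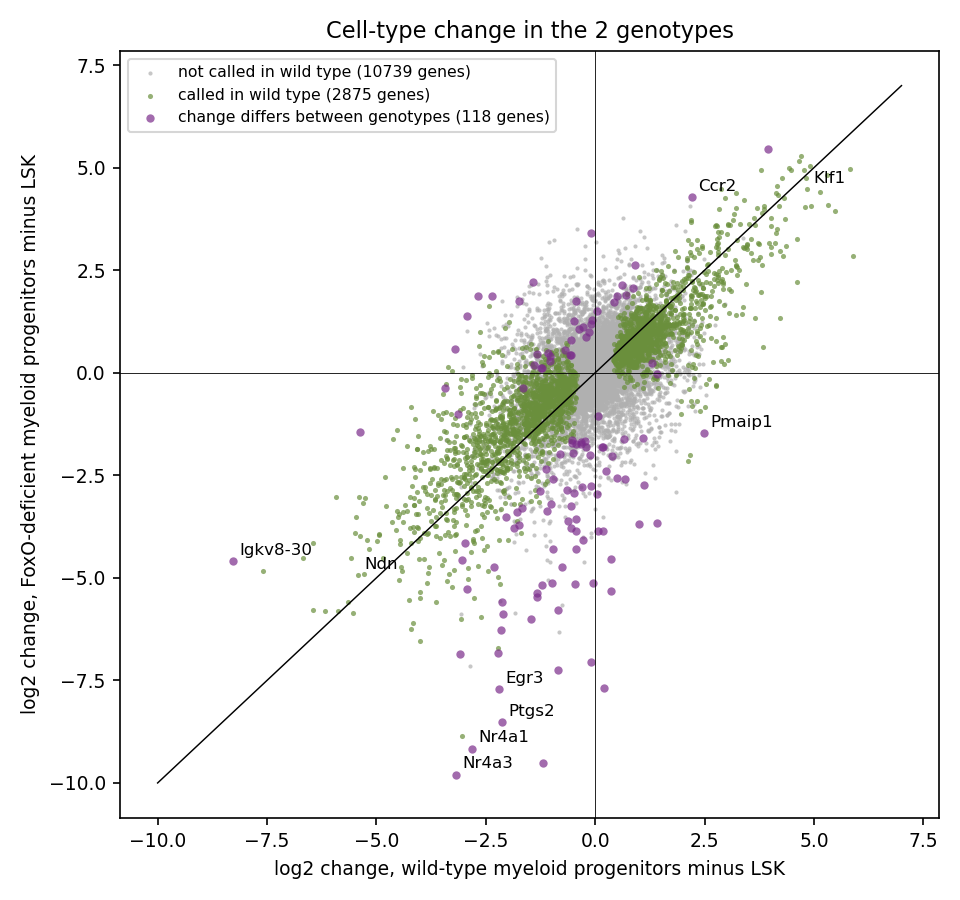
Log2 change of each gene between myeloid progenitors and LSK cells in FoxO-deficient mice (vertical) against wild-type mice (horizontal), grey where not called in wild type, green where called there and purple where the 2 changes differ by the test. Most green points follow the diagonal, and the purple points include Nr4a1, Nr4a3, Ptgs2 and Egr3, which lie far below it.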

How the data were processed

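RNA of pooled sorted cells was amplified with the NuGEN Ovation kit and measured on Affymetrix arrays of the Mouse Genome 430 2.0 design, per the labels' protocols. The authors deposited, per array, a linear intensity for 45101 probe sets. How probes were summarised is not given in the sources, and arrays were not on a common distribution. Here, 64 control probe sets were left out, log2(intensity + 0.6) was taken (the offset equals the 10th percentile of the deposited values), and arrays were quantile normalized, so that printed levels are antilogs of normalized values. The offset understates the change of dim genes. Genes were named by GEO's platform annotation, updated through RefSeq of GRCm38.p6 (34945 probe sets with 1 symbol, 932 with several, not used). Probe sets above the 40th percentile of the array on at least 3 arrays were kept, and the brightest stood for its gene, which left 13732 genes.

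Changes were tested in R 4.3.3 with limma 3.58.1 (functions lmFit and eBayes on 4 group means, 12 arrays, 8 residual degrees of freedom, Benjamini-Hochberg adjustment over all genes, call under 0.05). The number of arrays limits the precision. The scripts were tested on simulated data. For a gene not above the background limit on any array of its lower group, the bound sets the mean of the higher group against the limit of each array. Probe sets of one gene were not combined, and those of opposite sign are given beside the gene.

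Candidates were genes called with all arrays and without LSK array 2 whose groups do not overlap. Their brighter group also had to exceed the background limit on all its arrays. Of these candidates, the 12 with the largest change in each direction were named. From each list, up to 6 called members with the largest change and up to 3 others with the highest mean were named. Kit and the 8 called genes whose change differs most between genotypes were added. Of these 312 genes a selection is described. Markers of cell types (Meis1, Ctsg, Camp and others), the members of the plasma cell list and the genes of the closing part were named outside the rule after their values were seen. The comparison and the lists were chosen with earlier results of these data known. Alternatives changed the offset, normalization, filter, weights, prior, probe set rule and arrays. Promoter windows come from RefSeq.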

Additional observations from a re-analysis of the deposited data

Results flagged for a closer look

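For 19 of the genes named here, the change between myeloid progenitors and LSK cells differed between genotypes by limma's test of the difference. The values below are log2 differences, FoxO-deficient change minus wild-type change. A negative value means a deeper fall, a smaller rise or a fall in place of a rise in the deficient mice. Most are immediate-early genes, and all of those were negative: Nr4a3 at -6.62, Ptgs2 at -6.39, Nr4a1 at -6.35, Egr3 at -5.52, Thbs1 at -4.93, Rgs1 at -4.61, Nfkbiz at -4.55 and Egr2 at -4.05. Smaller differences of the same sign were those of Jund at -2.45, Nr4a2 at -2.44, Nfkbia at -1.97, Kdm6b at -1.41 and Klf4 at -1.20. Pmaip1, which rose in wild type, stood at -3.96, a difference larger than that rise, so that its fitted change in the deficient mice was a fall. Positive differences were found for 4933439C10Rik at 4.55, Txlnb at 4.31, Igkv8-30 at 3.69, Erg at 2.14 and Ccr2 at 2.06.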

How the results depend on the processing

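The count of 2942 genes called became 1100 with the wild-type arrays alone (400 higher and 700 lower, with fewer residual degrees of freedom) and 4619 with each probe set tested on its own (2208 higher and 2411 lower, more features being tested). Leaving out 1 array at a time gave 1995 to 4668 calls, 836 to 2453 higher and 1157 to 2215 lower, the top values being those without LSK array 2. The 1367 higher calls became 2188 with median scaling and 2296 with array weights; the cause was not tested. The 118 genes whose change differed between genotypes became 217 with an offset of 32, 72 with median scaling, 75 with no filter, 185 with a filter at the 60th percentile, 440 with array weights, 187 with each probe set, and 59 to 430 without 1 array.

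Of the 312 named genes, 3 that were not called with all arrays turned sign and were called lower without LSK array 2: Etv6 to -0.70 (-0.64 with array weights), Kit to -0.43 and Mdm2 to -0.39; without any other array their values reached up to 0.56, 0.41 and 0.36. Other named genes that were not called also changed sign without that array, none of them called there. No named gene that was called with all arrays changed sign under the settings that give 1 value per gene. The setting with each probe set tested on its own was not compared gene by gene. Calls were lost for 70 named genes with the wild-type arrays alone and for up to 31 under each other setting compared. With median scaling the direction with more calls turned for chromatin regulators and G1 genes, as it did over all genes (2188 higher and 1208 lower). The median of glycolysis moved from -0.13 to 0.14, beside 0.02 to 0.19 over all genes. No paired analysis was run, since the numbers in the titles run on from group to group and tie no array to another. They do not show whether the groups came from the same mice. Genes near the background limit have only bounds.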

Other observations

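The Gimap genes encode GTPases of the immune system that lie in a single cluster and are best known from lymphocytes. The family was picked out after its values had been seen, so its counts support nothing. Of 8 genes, 7 were tested, 6 were called lower in myeloid progenitors with and without LSK array 2, and the median log2 change was -3.06. Gimap8 read 403, 484 and 407 on LSK arrays and 8.55, 20.6 and 18.9 on myeloid progenitor arrays (log2 change of -4.85 ± 0.34, adjusted p = 2.10e-05), and Gimap6 read 256, 73.6 and 176 and 25.6, 14.3 and 15.6 (log2 change of -3.06 ± 0.58, adjusted p = 0.00462). Gimap5 was at least 5.33-fold lower (adjusted p = 6.86e-04) and Gimap3 at least 3.8-fold lower (adjusted p = 0.002). Gimap4 was dim in both groups, at 6.53 and 5.54.

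Imprinted genes, expressed from 1 parental allele, were also picked after their values had been seen. Of 24 listed, 17 were tested, 5 were called lower and none higher, with and without LSK array 2. Beside Ndn, these were Plagl1, a zinc finger factor, with 299, 344 and 189 against 84.1, 102 and 55.4 (log2 change of -1.79 ± 0.31, adjusted p = 0.00291), Sgce, with 72, 36.7 and 56.6 against 14.4, 15.4 and 2.24 (log2 change of -2.74 ± 0.67, adjusted p = 0.0168), Impact, a regulator of translation, with 515, 453 and 552 against 208, 247 and 188 (log2 change of -1.25 ± 0.15, adjusted p = 3.72e-04; 1 of 2 other probe sets had the opposite sign), and Slc22a18, with 27.4, 33.8 and 19.8 against 11.1, 15.2 and 11.5 (adjusted p = 0.0176; its other probe set had the opposite sign). Grb10, an adaptor of receptor signalling, read 1568 and 1923 and was not called (log2 change of 0.29 ± 0.16, adjusted p = 0.217).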
